A study of Homo sapiens with 3 samples.

Results

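The genes described here are AGO1, AGO2, AGO3, AGO4, DICER1, DROSHA, DGCR8, TARBP2, TNRC6A and TNRC6B, 10 of 21319 gene symbols on the array. They were taken by name, with the older names EIF2C1 to EIF2C4 and RNASEN allowed, and gave 42 of 54613 probe sets that are not array controls. The group was chosen by a measured value of these arrays, the log2 difference of AGO4 to the control, known to be high in both knockdowns, so the values of AGO4 are a description. The other genes were added by their role, but with earlier results of these data known, so their values are a description too. Rh-30 cells, an established line of alveolar rhabdomyosarcoma (ARMS) with the PAX3-FOXO1 fusion, were profiled by 3 Affymetrix U133 Plus 2.0 arrays. The arrays held cells given siPF, an siRNA against the fusion junction, cells given siB7-H3, an siRNA against CD276 (B7-H3), and cells given the control siRNA siCont. Every siRNA was used at 5 nM with the same transfection reagent, and the harvest was 24 h later. There was thus no untransfected sample, every array came from cells loaded with a small RNA, and each target was hit by 1 siRNA. Each condition had a single array, so neither an error nor a test could be given, and every difference lies between 2 arrays. In RNA of whole cultures, fewer cells of a kind and less RNA per cell cannot be told apart.

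Argonaute proteins hold a small RNA as a guide and bind the transcripts that match it, and they are the proteins on which both microRNAs and transfected siRNAs act. A microRNA is cut out of its primary transcript in the nucleus by the Microprocessor, made of the RNase DROSHA and its RNA-binding partner DGCR8, and is then trimmed in the cytoplasm by the RNase DICER1 with its partner TARBP2. The loaded Argonaute recruits the scaffold proteins TNRC6A and TNRC6B, which bring in the enzymes that remove the poly(A) tail and repress translation. Of the Argonautes, AGO2 is the one best known for cutting a fully matched target, the reaction used in an siRNA knockdown.

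CD276 and FOXO1 were lower on the arrays of their siRNAs at their brighter probe sets. CD276 had an intensity of 1381 in siPF, 362 in siB7-H3 and 1486 in siCont at its brightest probe set. FOXO1 had 249, 650.0 and 678 on the arrays in that order, and PAX3 had 329, 398 and 381. Second probe sets gave 349, 11.4 and 460 for CD276, and 88.4, 373 and 358 for FOXO1. A weak CD276 probe set went the other way, at 77.6, 83.6 and 54.4. Probe sets were not placed on transcripts, so FOXO1 values could not be assigned to the fusion or to unfused FOXO1. All 8 markers of the muscle lineage and rhabdomyosarcoma examined were at or over the 60th percentile of each array, and of 8 markers of other cell types 1 was, PECAM1, at 621 in siPF, 910.1 in siB7-H3 and 699 in siCont. CDH5, another endothelial marker, was at 11.6 in siPF, 4.99 in siB7-H3 and 1.79 in siCont, and the summed level of the 8 was 829.9, 1026 and 869.6 on the arrays in that order. MYOG, the gene of myogenin, differed among the arrays, at 3386 in siPF, 1269 in siB7-H3 and 605 in siCont, and its part in the differences below was not tested.

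AGO4 was about 3-fold brighter on both knockdown arrays than with the control siRNA. Its brightest probe set gave 1037 in siPF, 1088 in siB7-H3 and 369 in siCont, which are log2 differences of 1.49 for siPF and 1.56 for siB7-H3 against siCont. The knockdown arrays lay close together (-0.07, siPF over siB7-H3), and siCont was the low one. The second probe set gave 188 in siPF, 124 in siB7-H3 and 50.3 in siCont, with log2 differences of 1.90 and 1.29. The 2 remaining probe sets were dim, which here means under the 60th percentile of all 3 arrays. They gave 78.6 in siPF, 71.1 in siB7-H3 and 44.6 in siCont, and 30.4, 21.3 and 14.5 on the arrays in the same order. At all 4 probe sets siCont had the lowest value, and the differences spanned 0.82 to 1.90 for siPF, and 0.55 to 1.56 for siB7-H3. As no array was repeated, the spread of genes of like level gives a scale. The 19756 genes with a probe set of their own were split by mean level into 10 groups, and in the group of AGO4 (1975 genes) the central 95% of differences spanned -0.74 to 0.77 for siPF, and -0.65 to 0.69 for siB7-H3. In that group 3 genes in siPF and 1 gene in siB7-H3, AGO4 itself included, were as high as AGO4. AGO4 was chosen for its high differences, so this place was fixed in advance and is a description. A spread between genes is also not the error of an array.

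**Figure D1:**
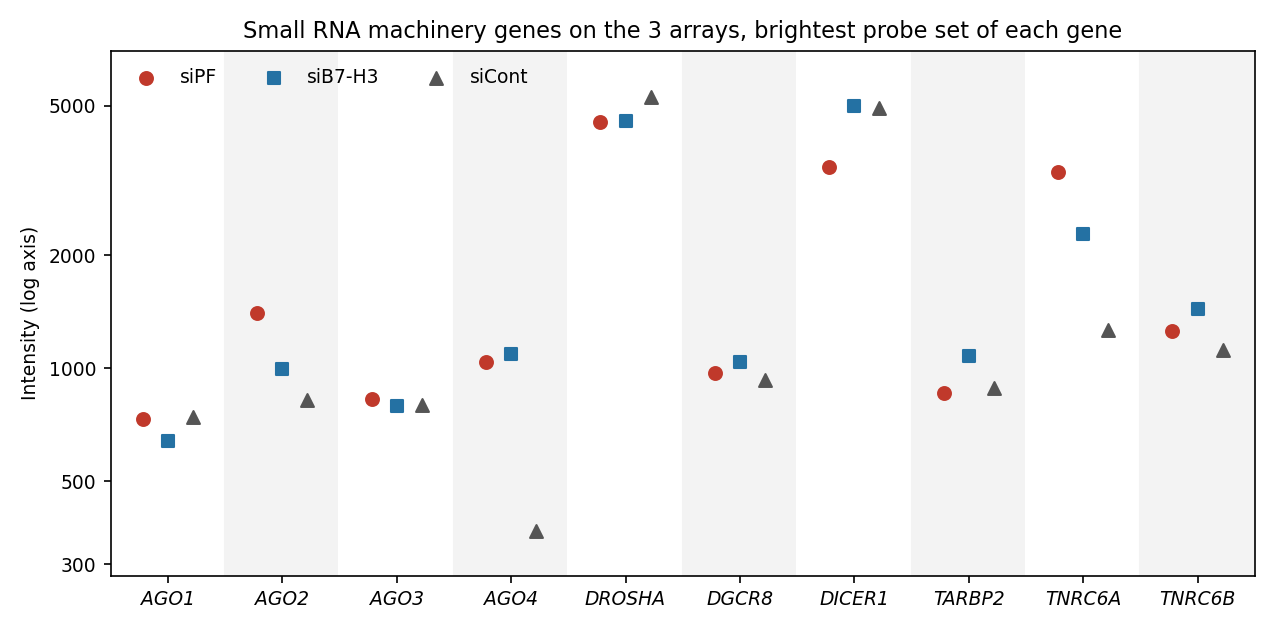
Intensity on a log axis (vertical) of the brightest probe set of each of the 10 genes (horizontal), 1 point per array, with siPF left, siB7-H3 in the middle and siCont right. AGO4 is at 1037 and 1088 on the knockdown arrays and at 369 in siCont, TNRC6A steps down over the arrays, DICER1 is low in siPF alone, and levels of different genes cannot be compared.

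AGO4 lies on chromosome 1 in a row with AGO1 and AGO3 (GRCh38.p14, RefSeq), and the closest relatives in that row did not share its difference. AGO4 spans chr1:35807636-35857890, AGO1 chr1:35869761-35930532 and AGO3 chr1:35930718-36072500, with 11871 bases from the end of AGO4 to the start of AGO1 and 186 bases from the end of AGO1 to the start of AGO3. AGO1 had 732 in siPF, 640.0 in siB7-H3 and 740.1 in siCont at its brightest probe set, with log2 differences of -0.02 and -0.21. AGO3 had 827 in siPF, 791 in siB7-H3 and 798 in siCont, or 0.05 and -0.01. The 3 AGO1 probe sets that reached the 60th percentile on an array (an intensity of 137 in siPF, 135 in siB7-H3 and 132 in siCont) spanned -0.02 to 0.26 for siPF, and -0.21 to 0.30 for siB7-H3. All 4 AGO3 probe sets reached it and spanned -0.48 to 0.34 for siPF, and -0.30 to -0.01 for siB7-H3. All 4 probe sets of AGO4 had larger log2 differences than any probe set of AGO1 or AGO3, for siPF and for siB7-H3.

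Of the 5 measured protein-coding genes on either side of the row, 8 of 10 reached that level on an array, and they spanned -1.03 to 0.45 for siPF, and -0.33 to 0.43 for siB7-H3. CLSPN, the gene next to AGO4, which encodes the checkpoint mediator claspin, had 924 in siPF, 738 in siB7-H3 and 781 in siCont. The gene at -1.03 was TFAP2E, a transcription factor of the AP-2 family, with 67.9 in siPF, 128 in siB7-H3 and 139 in siCont, close to the level limit. The others at that level, NCDN, PSMB2, C1orf216, ADPRS, TRAPPC3 and MAP7D1, were within a log2 difference of 0.45, and TEKT2 and COL8A2 were dim on all arrays.

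**Figure D2:**
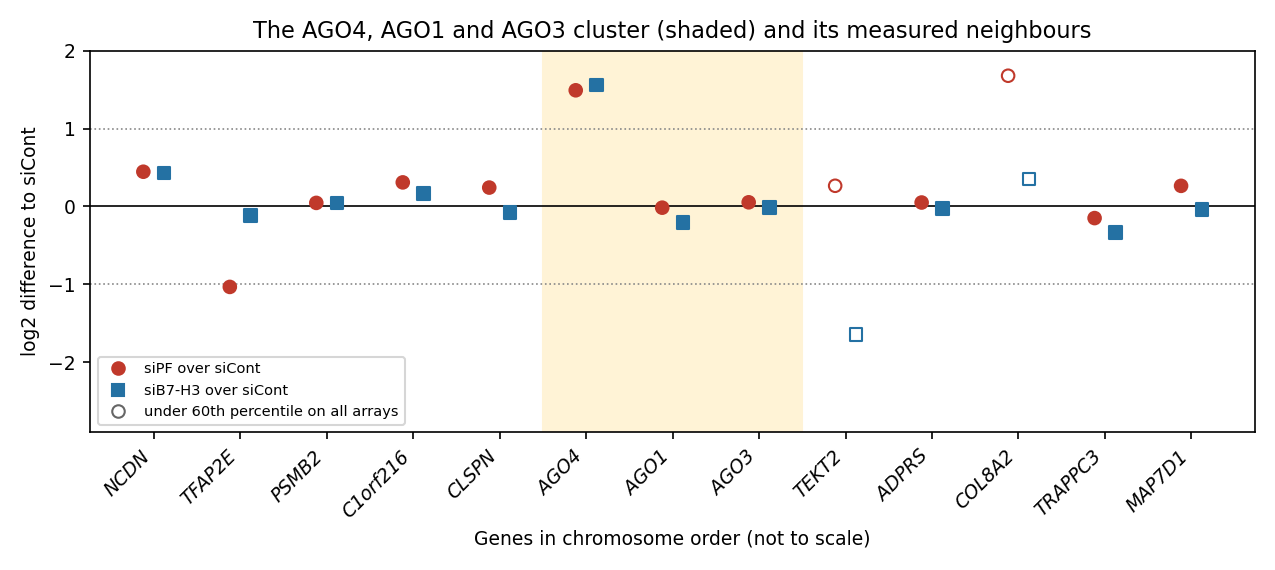
Log2 difference to siCont (vertical) of the 13 genes in chromosome order (horizontal, not to scale), for siPF (circles, left) and siB7-H3 (squares, right), with open symbols for genes under the 60th percentile on all arrays. AGO4 is at 1.49 and 1.56, whereas AGO1 and AGO3 in the same shaded row lie between -0.21 and 0.05.

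The sequences around the starts of these neighbours are shown because 3 related genes in a row gave different results. Each window holds 250 bases before and 50 bases after an annotated start (RefSeq, GRCh38.p14, plus strand), and TNRC6A, the other gene past 2-fold, is added for comparison. Capitals mark the E-box (CANNTG), the site of muscle transcription factors such as myogenin, and the paired-domain core of PAX proteins (GTCACGC), searched on both strands.
AGO4, chr1:35807766-35808065: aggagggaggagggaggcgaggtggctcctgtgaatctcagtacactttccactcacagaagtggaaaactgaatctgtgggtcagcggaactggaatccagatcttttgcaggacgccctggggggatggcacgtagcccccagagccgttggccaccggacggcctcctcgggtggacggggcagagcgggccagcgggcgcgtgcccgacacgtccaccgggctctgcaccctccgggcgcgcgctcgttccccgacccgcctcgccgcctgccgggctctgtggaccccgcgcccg
AGO1, chr1:35882959-35883258: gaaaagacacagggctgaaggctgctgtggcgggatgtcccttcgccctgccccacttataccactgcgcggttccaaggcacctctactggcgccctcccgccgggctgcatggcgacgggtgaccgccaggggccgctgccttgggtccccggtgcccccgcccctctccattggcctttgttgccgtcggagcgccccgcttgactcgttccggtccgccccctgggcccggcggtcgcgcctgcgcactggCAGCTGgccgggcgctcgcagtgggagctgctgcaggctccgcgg
AGO3, chr1:35930855-35931154: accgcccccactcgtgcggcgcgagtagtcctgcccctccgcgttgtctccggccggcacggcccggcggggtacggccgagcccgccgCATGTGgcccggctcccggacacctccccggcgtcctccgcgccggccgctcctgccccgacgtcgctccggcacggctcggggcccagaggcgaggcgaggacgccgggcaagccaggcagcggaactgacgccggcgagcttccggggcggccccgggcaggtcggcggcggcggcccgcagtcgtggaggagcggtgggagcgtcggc
TNRC6A, chr16:24729401-24729700: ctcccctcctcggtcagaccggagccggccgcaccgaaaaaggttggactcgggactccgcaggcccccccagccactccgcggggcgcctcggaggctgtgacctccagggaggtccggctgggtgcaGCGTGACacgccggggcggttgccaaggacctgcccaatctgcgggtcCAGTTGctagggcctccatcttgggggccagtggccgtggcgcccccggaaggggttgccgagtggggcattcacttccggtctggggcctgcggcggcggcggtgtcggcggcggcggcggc
The AGO4 window held no E-box, and the windows of AGO1, AGO3 and TNRC6A held 1 each. An E-box was also absent from the windows of TNRC6B, DROSHA and DGCR8, not shown, which were within 2-fold at their brightest probe sets. DICER1 and TARBP2, also within 2-fold there, have several windows, not shown. The 5 of DICER1 held 0 to 5 E-boxes each, and the 3 of TARBP2 held 1 or 2 each. Of all 35116 windows of this length, 68.7% held an E-box. The PAX core was found once in TNRC6A, in the reverse orientation, and in 2.52% of all windows. Neither the homeodomain core ATTA, found in 50.2% of windows, nor any other copy of the PAX core was in the 4 windows shown. The GC content was 69.0% for AGO4, 72.3% for AGO1, 80.0% for AGO3 and 73.7% for TNRC6A, against a median of 58.7% over all windows. In all 4 genes shown the annotated gene begins upstream of the window, and a letter match is a description, not a binding site.

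AGO2, which lies on chromosome 8, was higher in siPF than on the other arrays, short of 2-fold. Its brightest probe set gave 1403 in siPF, 993 in siB7-H3 and 819.7 in siCont, with log2 differences of 0.78 and 0.28. Another gave 693 in siPF, 515 in siB7-H3 and 523 in siCont, or 0.41 and -0.02, and the third 610.1, 567 and 543. A dim probe set gave 93.8 in siPF, 91.6 in siB7-H3 and 51.1 in siCont. siPF had the highest value at all 4, whereas siB7-H3 was above siCont at 3 of them. In the level group of AGO2 (1976 genes), 51 genes were as high in siPF, and the central 95% ended at 0.78. Of the 4 probe sets, 3 also carry the symbol CASC7, which RefSeq now lists as another name of AGO2. A probe set with the symbol CASC7 alone, not counted here, gave 156 in siPF, 145 in siB7-H3 and 86.3 in siCont.

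TNRC6A, the scaffold also known as GW182, was higher on both knockdown arrays, and more so in siPF. The brightest probe set gave 3323 in siPF, 2272 in siB7-H3 and 1261 in siCont, with log2 differences of 1.397 and 0.85, and the difference of siPF over siB7-H3 was 0.55. The next probe sets gave 1848 in siPF, 1347 in siB7-H3 and 976 in siCont (0.92 and 0.47), and 1215 in siPF, 934 in siB7-H3 and 595 in siCont (1.03 and 0.65). At these 3 probe sets the arrays kept the same order, siPF over siB7-H3 over siCont. A weaker probe set gave 139.9 in siPF, 157 in siB7-H3 and 103 in siCont. Of the 2 dim ones, 1 gave 74.6, 30.1 and 60.3 and the other 23.0, 83.2 and 63.2 on the arrays in that order, so they did not follow. In its level group (1975 genes) 2 genes in siPF and 12 in siB7-H3 were as high as TNRC6A, itself included, and the central 95% ended at 0.66 in siPF and 0.61 in siB7-H3.

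TNRC6B, its close relative, was within 2-fold at all 7 probe sets. The brightest gave 1258 in siPF, 1433 in siB7-H3 and 1115 in siCont, or log2 differences of 0.17 and 0.36, and the range was -0.84 to 0.33 for siPF, and -0.27 to 0.36 for siB7-H3. TNRC6C, the third human gene of the family and not among the 10, had 709 in siPF, 683 in siB7-H3 and 349.8 in siCont, with log2 differences of 1.02 and 0.96. Its 6 other probe sets were dimmer. Of these, 1 gave 140.3 in siPF, 162 in siB7-H3 and 108 in siCont, and 1 gave 16, 115 and 83.2 and so went the other way in siPF. The family thus had TNRC6A and TNRC6C near or past 2-fold at their brightest probe sets, and TNRC6B not.

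**Figure D3:**
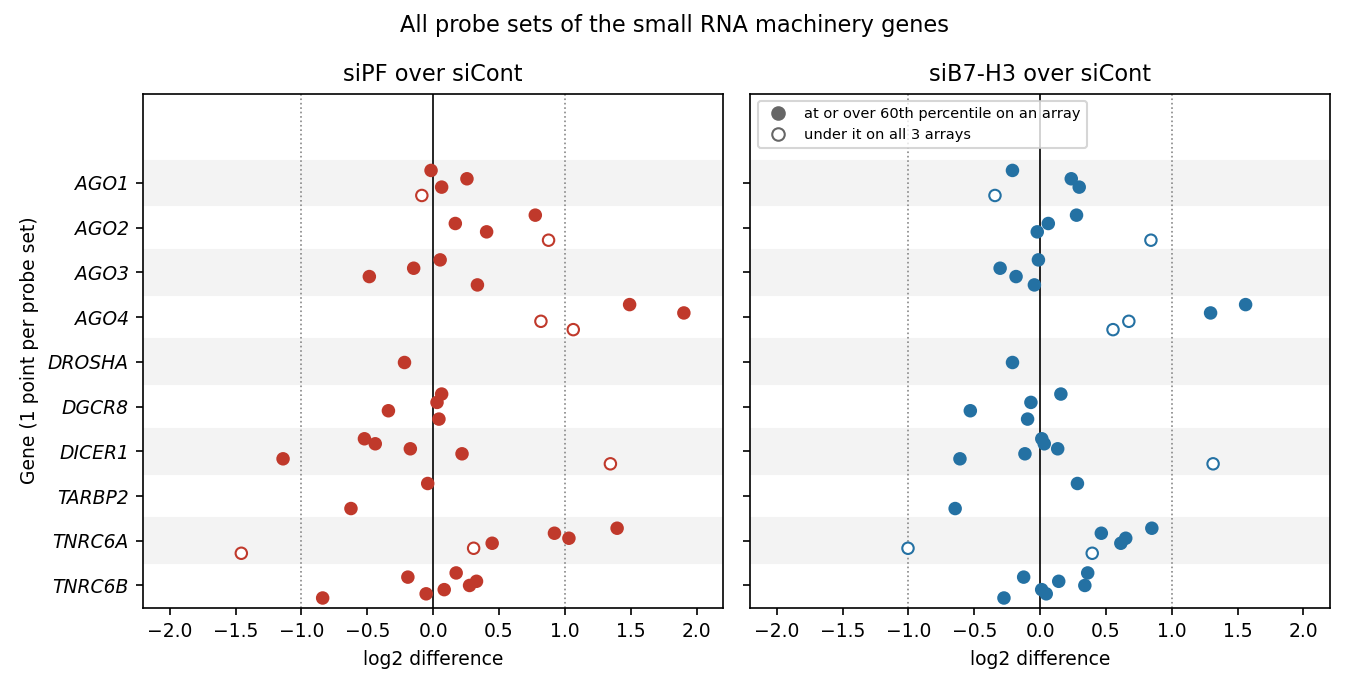
Log2 difference (horizontal) at each of the 42 probe sets of the 10 genes (vertical, brightest at the top of each row), for siPF over siCont (left) and siB7-H3 over siCont (right), with filled points for probe sets at or over the 60th percentile on an array. All 4 points of AGO4 lie right of 0 in both panels, the open points of TNRC6A lie on both sides of 0, and DICER1 has points near -1.14 and 1.35 in the left panel.

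The RNases and their partners were within 2-fold at their brightest probe sets. DICER1 was lower in siPF alone, with 3432 in siPF, 4973 in siB7-H3 and 4928 in siCont, or log2 differences of -0.52 and 0.01. The next 2 probe sets gave 2888 in siPF, 4004 in siB7-H3 and 3917 in siCont, and 1119 in siPF, 1385 in siB7-H3 and 1262 in siCont, so siPF was the lowest array at the 3 brightest. In the level group of DICER1 (1976 genes) 65 genes were as low in siPF, and the central 95% began at -0.57. The 3 other probe sets disagreed, with log2 differences in siPF of 0.22, -1.14 and 1.35. The lower gave 62.4 in siPF, 90.1 in siB7-H3 and 137 in siCont. The higher, dim on all arrays, gave 35.6 in siPF, 34.9 in siB7-H3 and 14 in siCont. With all 6 probe sets combined by their median, DICER1 had a log2 difference of 0.02 in siPF, so its lower level was not seen there. DROSHA, with 1 probe set, had 4511 in siPF, 4551 in siB7-H3 and 5264 in siCont, and both differences, -0.22 and -0.21, lay within the central 95% of its level group. TARBP2 had 860.1 in siPF, 1077 in siB7-H3 and 885 in siCont, or log2 differences of -0.04 and 0.28. Its other probe set gave 105 in siPF, 103 in siB7-H3 and 162 in siCont, or -0.62 and -0.64, so siB7-H3 was above siCont at 1 probe set and below it at the other.

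DGCR8 could be read only through probe sets that the platform pairs with DGCR8 and with MIR1306, a microRNA gene inside it. The 4 probe sets spanned -0.34 to 0.06 for siPF, and -0.53 to 0.16 for siB7-H3, and the brightest gave 973 in siPF, 1038 in siB7-H3 and 931 in siCont. DGCR8 spans chr22:20080241-20111872, MIR1306 chr22:20086058-20086142 and MIR3618, also inside it, chr22:20085746-20085833. The Microprocessor is known to cut its own DGCR8 transcript at hairpins of this kind, so the mature sequences (RefSeq) are shown with the seed, bases 2 to 8, in capitals.
hsa-miR-1306-5p: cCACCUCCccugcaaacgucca
hsa-miR-1306-3p: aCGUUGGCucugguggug
hsa-miR-3618: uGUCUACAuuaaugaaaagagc
The 3 seeds differ from each other. The arrays read polyadenylated RNA, so no level of a mature microRNA is given by these values.

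Counted at the brightest probe set, 2 of the 10 genes were at least 2-fold higher in siPF (AGO4 and TNRC6A) and 1 in siB7-H3 (AGO4), and none was 2-fold lower in either. A gene was counted only if the brighter of the 2 arrays reached its 60th percentile, which all 10 did in every comparison. Of the 10492 genes passing in siPF, 1.38% were 2-fold higher and 1.12% lower, and of 10475 in siB7-H3, 0.792% were higher and 0.821% lower. When all probe sets of a gene were combined by their median, 0 genes were counted as higher in either knockdown, with 0.74 for TNRC6A in siPF and 0.98 for AGO4 in siB7-H3. AGO4 in siPF was then at 1.36, still past 2-fold, and was not counted because its combined value was under the level limit. The genes were proposed with AGO4 known, so its place in these counts is fixed. The other members, TNRC6A included, were also chosen with earlier results of these data known, so the counts are a description. The median log2 difference over the 10 was 0.06 with siPF, and 0.22 with siB7-H3, against 0.02 for all genes passing in each. With probe sets combined by their median, the median in siB7-H3 was 0.0095 over the 9 genes still bright enough. Above siCont were 6 of 10 in siPF and 7 of 10 in siB7-H3, against 52.5% and 52.8% of all genes passing. No gene of the 10 differed by 2-fold between siPF and siB7-H3, where 0.9% of 10445 genes were higher and 0.919% lower in siPF, and the values ran from -0.54 for DICER1 to 0.55 for TNRC6A. At a log2 difference of 0.5, 3 of the 10 genes were higher and 1 lower in siPF, against 8.13% and 6.58% of all genes passing, and 2 were higher and 0 lower in siB7-H3, against 6.12% and 5.54%. Between siPF and siB7-H3, 1 was higher and 1 lower in siPF, against 5.69% and 5.17%. Both knockdowns were set against the same siCont array, so their values are not independent.
Over probe sets, 35 of 42 reached the 60th percentile on an array. Of these, 4 were 2-fold higher and 1 lower in siPF, against 1.52% and 1.33% of all 23161 such probe sets, and 2 were higher and none lower in siB7-H3, against 1.08% and 1.11%. Between siPF and siB7-H3 none was past 2-fold, against 1.05% higher and 1.02% lower. The 4 belonged to AGO4 (2) and TNRC6A (2), the 1 lower to DICER1, and both in siB7-H3 to AGO4. The dimmer of these 2 AGO4 probe sets reached the 60th percentile through siPF alone (188), and its values in siB7-H3 (124) and siCont (50.3) were both under it.

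**Figure D4:**
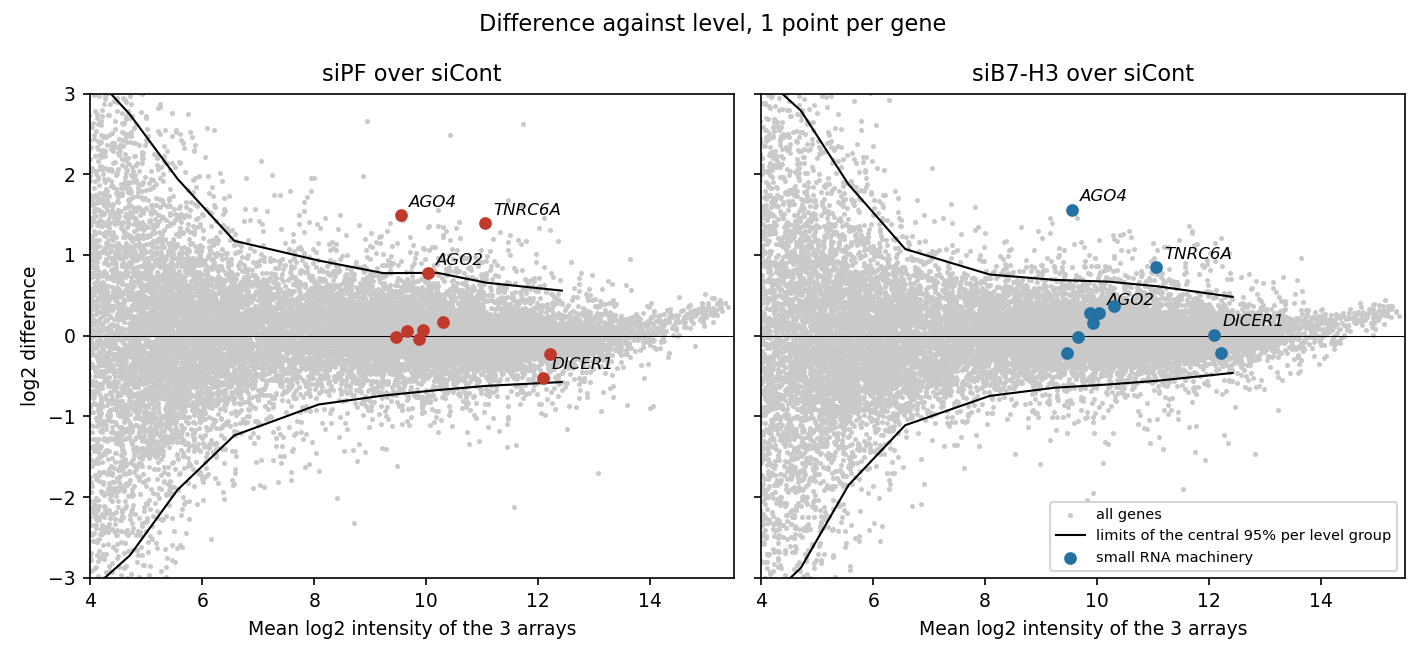
Log2 difference (vertical) against mean log2 intensity of the 3 arrays (horizontal), 1 grey point per gene and coloured points for the 10 genes, for siPF over siCont (left) and siB7-H3 over siCont (right), with lines at the limits of the central 95% per level group and some dim genes beyond the axes. AGO4 (1.49 and 1.56) and TNRC6A (1.397 and 0.85) lie above the upper line in both panels.

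Among 10601 other genes that reached the 60th percentile on some array, the 5 whose 3 values were most like those of AGO4 were ZDHHC19, BTBD2, PLEKHA4, CYB5R4 and RCE1. Likeness was the Euclidean distance of the 3 log2 values centred on their mean, and the distances were 0.113 to 0.183. With 3 arrays this says only that siPF and siB7-H3 were alike and siCont lower. CYB5R4, a cytochrome b5 reductase, had 755 in siPF, 845 in siB7-H3 and 320.3 in siCont, and RCE1, a protease that trims prenylated proteins, had 282 in siPF, 348 in siB7-H3 and 116 in siCont. ZDHHC19, BTBD2 and PLEKHA4 had 55.7, 90.9 and 72.5 in siCont. These genes and RCE1 were under the 60th percentile in siCont and reached it through the knockdown arrays alone, where they are high. ZDHHC19 was close to that limit there, at 150 in siPF and 147 in siB7-H3. At their other probe sets, CYB5R4 gave log2 differences of 0.20 in siPF and 1.60 in siB7-H3, RCE1 -1.32 and 0.27, and ZDHHC19 -0.23 and 1.90, all from dim values.

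The wider pathway was within 2-fold for nearly all genes. A list of 90 genes of small RNA processing, Argonaute loading, silencing and decay had 85 with a probe set of their own, of which 74 were bright enough to count for siPF and 75 for siB7-H3. LSM14A and TNRC6C were 2-fold higher in siPF, LSM14A was in siB7-H3, and none was 2-fold lower. Of all genes passing, 1.38% were 2-fold higher and 1.12% lower in siPF, and 0.792% and 0.821% in siB7-H3. The list had a median log2 difference of 0.06 for siPF, with 0.03 for siB7-H3, against 0.02 for all genes in each, and 44 of 74 and 41 of 75 lay above siCont, against 52.5% and 52.8% of all genes. LSM14A, a protein of processing bodies that acts in translational repression, had 3174 in siPF, 2968 in siB7-H3 and 1382 in siCont. Its second probe set gave 2559 in siPF, 2961 in siB7-H3 and 914 in siCont, and the third 798, 1124 and 641, so siCont was the lowest array at each.
XPO5 and RAN, which carry a precursor to the cytoplasm, and PRKRA were within 2-fold at all of their probe sets. At the dimmer ones, the largest log2 differences to siCont were -0.37 for PRKRA in siPF and -0.33 for RAN in siB7-H3. The brightest probe sets follow. XPO5, the exporter of precursors from the nucleus, had 1801 in siPF, 2064 in siB7-H3 and 1804 in siCont. RAN, the GTPase that drives this export, had 18359 in siPF, 18722 in siB7-H3 and 19390.1 in siCont, and PRKRA, another partner of DICER1, had 4170.0 in siPF, 3850.0 in siB7-H3 and 3779 in siCont. The 18 measured genes of deadenylation, which include the CNOT subunits that TNRC6 proteins recruit, spanned -0.31 to 0.46 for siPF, and -0.30 to 0.51 for siB7-H3. The 12 measured chaperones and helpers of Argonaute loading had a median of -0.22 for siPF, against siCont, and of -0.02 for siB7-H3. The lowest of these in siPF was PTGES3, the Hsp90 cochaperone p23, with 10855 in siPF, 19859 in siB7-H3 and 20116 in siCont. In the role of decapping, repression and decay, 11 of the 15 genes that passed the level rule were above siCont in siPF, with a median of 0.21. The count in siB7-H3 was also 11 of 15, with a median of 0.05. Of all genes passing, 52.5% were above siCont in siPF and 52.8% in siB7-H3. Among the Microprocessor partners and nuclear RNA-binding proteins, 8 of 11 were above siCont in siPF and 6 of 11 in siB7-H3. The other roles were mixed. In both knockdowns 10 of 18 deadenylation genes and 5 of 12 loading chaperones were above siCont. For proteins found with Argonaute complexes it was 7 of 9 in siPF and 4 of 10 in siB7-H3. For LIN28 and tailing it was 2 of 5 and 3 of 5, and for export, Dicer partner and import 1 of 4 and 2 of 4. Of the 15 genes of decapping, repression and decay, the 2 lowest in siPF were XRN1 and DCP2. XRN1 is the exonuclease that degrades decapped RNA, and DCP2 is the decapping enzyme. Both were near siCont in siB7-H3. XRN1 had 5422 in siPF, 8989 in siB7-H3 and 8838 in siCont, and DCP2 had 2122 in siPF, 3522 in siB7-H3 and 3404 in siCont. PTGES3, XRN1 and DCP2 did not reach 2-fold and were named after their values were seen. Each is given at its brightest probe set alone, and any other probe sets of these genes were not examined. Of the PIWI proteins and their piRNA partners, relatives of the Argonautes that act in the germ line, 5 of 6 were measured and none reached the level limit.

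**Figure D5:**
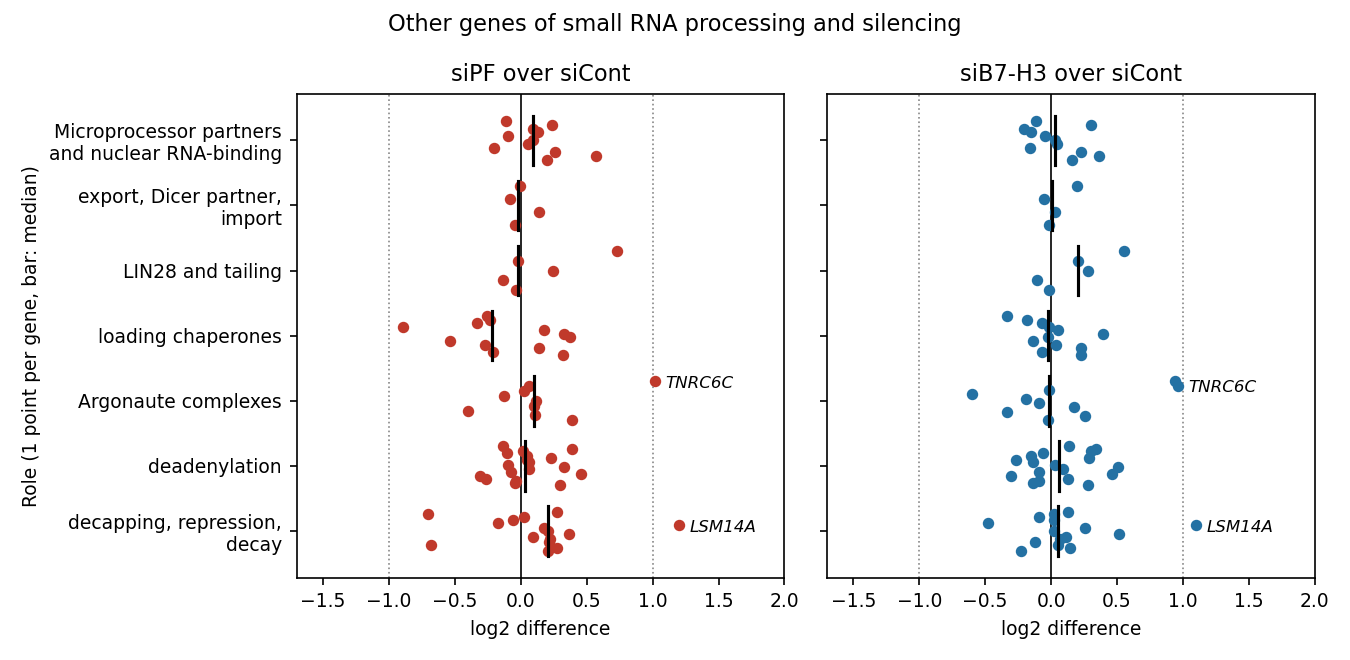
Log2 difference (horizontal) of the genes of the wider list that passed the level rule, by role (vertical), 1 point per gene with a bar at the median of each role, for siPF over siCont (left) and siB7-H3 over siCont (right). LSM14A (1.20 and 1.10) and TNRC6C (1.02 and 0.96) are the highest of their roles, and the point beside TNRC6C in the right panel is WTIP (0.94), which had 155.0 in siB7-H3 and 80.7 in siCont.

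Genes whose transcripts hold microRNAs were examined as a list of 42, of which 32 were measured and 20 passed the level rule in each comparison. DNM3 was 2-fold lower in siPF and none was 2-fold higher in either, with a median log2 difference of 0.15 for siPF, and of 0.07 for siB7-H3, against 0.02 for all genes in each. Of all genes passing in siPF, 1.12% were 2-fold lower and 1.38% higher. DNM3, a dynamin, had 102 in siPF, 258 in siB7-H3 and 274 in siCont, but its second probe set gave 176 in siPF, 142 in siB7-H3 and 171 in siCont. The microRNAs of the MIR199A2 and MIR214 locus lie on the opposite strand of DNM3, in the transcript DNM3OS, which was not in the list. The count of DNM3 as lower is thus not a result about the transcript that holds these microRNAs. DNM3OS had 463 in siPF, 346 in siB7-H3 and 373 in siCont, so it did not follow the brightest probe set of DNM3. The second DNM3OS probe set gave 201 in siPF, 147 in siB7-H3 and 109 in siCont, with log2 differences of 0.88 and 0.43.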

How the data were processed

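The authors hybridized cRNA of 3 Rh-30 cultures to GeneChip Human Genome U133 Plus 2.0 arrays and deposited 1 linear intensity per probe set, made with Affymetrix Expression Console 1.4.1 per the labels. The summarization method is not given in the sources used here, and each array had a mean of 500.06 once 2% of probe sets were trimmed at either end. Intensities were log2-transformed as deposited. Of 54675 probe sets, 62 were controls, 41111 had 1 gene, 1781 several and 11721 none after platform symbols were brought to current RefSeq ones. The probe set brightest on average (mean log2) stood for its gene. Only probe sets with 1 gene were used for this, DGCR8 excepted, and a gene with such a probe set is called measured. A gene not measured may still share a probe set with another symbol. A call was a log2 difference of at least 1 where the brighter of the 2 arrays reached its 60th percentile of probe sets. No test was made, as each condition had 1 array, and the number of arrays limits the precision. The genes named were the 10 members with all probe sets, TNRC6C, XPO5, PRKRA and RAN, list genes past 2-fold, the 5 genes most like AGO4, the neighbours of the AGO4 row and the siRNA targets. The members and lists were chosen with earlier results of these data known, and the motifs, the comparison with genes of like level, PTGES3, XRN1, DCP2 and DNM3OS were chosen after their values could be seen. Promoter and microRNA sequences came from RefSeq tables (GRCh38.p14). Alternatives were other ways to represent a gene, probe set suffixes left out, median centring, quantile normalization, a floor, a pseudocount of 16, a threshold of 0.5 and no level rule. Python 3.11.15, numpy 2.4.6, pandas 2.3.3 and matplotlib 3.10.9 were used, after a test of the code on simulated data.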

Additional observations from a re-analysis of the deposited data

How the results depend on the processing

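Without a second array of any condition, no replicate could be left out. No paired analysis was possible because each condition had 1 array. Of 210 values per gene under the 7 settings of representation, scaling and low levels, 208 kept their direction, where called, and their side of 2-fold. A value short of 2-fold was counted as kept even where its sign turned. Thus DICER1 in siPF went from -0.52 to 0.02 with probe sets combined by their median. TARBP2 in siB7-H3 went from 0.28 to -0.64 with probe set suffixes left out. Choosing the probe set by its highest single value, or applying the floor, left every value as it was. Those settings could thus not move a call, and the share that stayed is no measure of robustness. The values that crossed 2-fold did so when all probe sets of a gene were combined by their median, which gave 0.74 for TNRC6A in siPF and 0.98 for AGO4 in siB7-H3. Under it, 0 genes were counted as higher in siPF and 0 in siB7-H3, where AGO4 in siPF kept a log2 difference of 1.36 but was too dim for the level rule, and the median in siB7-H3 over the 9 genes still bright enough was 0.0095. Neither scaling moved the median of all probe sets further than -0.0236. With a threshold of 0.5, 1 gene was lower in siPF and 2 were higher in siB7-H3, and 1 gene was higher and 1 lower in siPF over siB7-H3.
Of 96 values at the other probe sets of the genes, 83 kept their side. The dimmer probe sets of AGO4 gave 0.82 in siPF and 0.55 and 0.67 in siB7-H3. Those of TNRC6A gave 0.92, 0.45, 0.31 and, turned round, -1.46 in siPF, -1.0, also turned round, in siB7-H3, and 1.31 and, turned round, -1.85 in siPF over siB7-H3. A dim DICER1 probe set gave 1.35 in siPF, turned round, and 1.31 in siB7-H3, and another -1.14 in siPF. Where probe sets of 1 gene differ, the cause was not tested. One siRNA per target and 1 array per condition limit every statement.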
